A study of Mus musculus with 2 samples.

Results

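Type I interferon-induced genes were followed through the leukocytes of mouse colorectal tumors. The module was a fixed list of 35 genes, of which 34 were among the 30905 genes of the deposited matrices. Mx2 was not analysed here. Their raw counts of unique molecular identifiers (UMIs, each standing for 1 captured RNA molecule) were read in every cell class, and a higher level in all cells of a class was separated from a larger share of cells in a strongly responding state.

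The cells were CD45+ leukocytes sorted from tumor tissue of male C57BL/6 mice and profiled with the 10x Genomics 3' V3 droplet assay. Tumors were induced in all mice with azoxymethane (AOM, 12 mg/kg), which mutates DNA of the gut lining, followed by dextran sodium sulfate (DSS), which inflames the gut. DSS was given at 2.5% for 7 days and plain water for 14 days, in 3 such cycles. From cycle 2, 1 group ate ad libitum and the other was on a fasting-mimicking diet (FMD). Each diet was represented by 1 library made from 4 pooled mice, so no difference below has a replicate check, the mice behind a library cannot be told apart, and each difference is one between these libraries. Brackets give exact 95% intervals that cover counting error only.

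Cells make type I interferon when sensors of foreign or displaced nucleic acid are triggered. It binds the receptor Ifnar1 and Ifnar2, whose kinases Jak1 and Tyk2 activate Stat2 among others, and Stat2 joins Irf9 in a complex that binds the interferon-stimulated response element in the promoters of the induced genes. The induced proteins include more sensors, factors that carry the signal on, and effectors that block viruses, and in the colon and its tumors they are known as a mark of cells exposed to interferon.

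After filtering, 4865 ad libitum and 4620 FMD cells were kept, with medians of 5506 and 5741.5 UMIs per cell. The libraries shared 7 barcodes. The CD45 gene Ptprc had a UMI in 92.0% and 93.5% of kept cells, and the epithelial gene Epcam in 3.58% and 2.92%. Classes were rebuilt from the counts. The largest were B-like cells (2814 and 2554 cells) and alpha beta T-like cells (helper or naive, regulatory and CD8 classes pooled, 1076 and 1141). Smaller classes included memory or B-1 B-like cells (267 and 199), macrophage or dendritic-like cells (124 and 170) and neutrophil-like cells (71 and 54). Clusters were formed without the members or other interferon-induced genes.

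Promoter sequences are shown for members that stood furthest apart between strongly responding and other T-like cells, because the response element is the shared route of their induction. RefSeq promoter entries (mouse assembly GRCm38.p6) existed for 27 of the 34 members. The core GAAANNGAAA, searched on both strands in the 250 bases before the annotated start, was found for 12 of the 27 (44.4%) and for 936 of 27025 genes in the table (3.46%). The 12 were Bst2, Ifit1, Ifit3, Ifit3b, Isg15, Oas1a, Oas3, Rsad2, Slfn5, Slfn8, Stat2 and Trim30a, and 6 members held it at least 2 times, against 0.211% of genes. The sequences below run 5′ to 3′ on the strand of the gene, end before the first annotated exon base, and show the core, or its reverse complement, in capitals.
Ifit3: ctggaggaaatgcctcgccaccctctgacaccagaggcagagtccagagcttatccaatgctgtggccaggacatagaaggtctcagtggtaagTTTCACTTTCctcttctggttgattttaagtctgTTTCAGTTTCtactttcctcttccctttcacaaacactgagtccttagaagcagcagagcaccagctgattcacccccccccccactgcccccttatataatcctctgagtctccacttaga
Ifit1: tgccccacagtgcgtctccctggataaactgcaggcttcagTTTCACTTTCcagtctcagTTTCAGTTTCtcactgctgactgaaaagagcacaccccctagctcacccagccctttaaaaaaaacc
Rsad2: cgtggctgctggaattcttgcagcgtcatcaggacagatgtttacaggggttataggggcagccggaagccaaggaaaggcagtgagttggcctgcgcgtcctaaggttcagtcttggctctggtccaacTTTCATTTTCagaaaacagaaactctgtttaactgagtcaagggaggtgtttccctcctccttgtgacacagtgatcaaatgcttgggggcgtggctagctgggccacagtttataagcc
Slfn5: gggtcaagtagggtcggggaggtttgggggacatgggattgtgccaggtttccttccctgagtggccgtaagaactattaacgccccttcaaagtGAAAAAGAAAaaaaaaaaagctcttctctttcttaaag

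The Ifit3 sequence is chr19:34583279-34583528 (plus strand), with cores that begin 156 and 122 bases before the start. Ifit1 lies nearby at chr19:34640744-34640870 (plus strand), with cores at 104 and 85 bases. Both genes carried a pair of cores spelled TTTCACTTTC and TTTCAGTTTC in the same order. Rsad2 is at chr12:26456453-26456702 (minus strand), with 1 core at 120 bases. Slfn5 is at chr11:82951852-82951984 (plus strand), with 1 core at 155 bases in the forward spelling. Distances are counted to the end of the searched window, chr11:82952101 for Slfn5 and chr19:34640888 for Ifit1. Those windows held annotated exon bases, of Slfn5 itself and of Ifit1 and Ifit1bl2. Their printed sequences, of 133 and 127 bases, leave exon bases out and end short of the window. The same window of Oasl2 and of Oasl1, which also stood far apart between those cells, did not hold these letters. Mx1, Oas2, Rtp4, Usp18, Dhx58, Parp14 and Zbp1 are named only. A match is a description of the letters and was not read as a bound site.

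Some members cannot be separated fully from a near copy by short 3' reads. The transcripts of Ifit3 and Ifit3b were 98.0% identical over 1697 aligned bases, and their promoters 99.1% over 218. Oas1a was 97.5% identical to Oas1g, and Slfn8 was 90.8% identical to Slfn9. Values of Ifit3, Ifit3b, Oas1a and Slfn8 are therefore uncertain to the extent that reads of a copy were assigned to them.

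The members were expressed at quite different levels in different cells. Levels are given as UMIs per 10000 UMIs of a class outside immunoglobulin and mitochondrial genes. Of paired values, the ad libitum one comes first here and below, and ratios are FMD over ad libitum. The named classes were ranked for each member, leaving out innate lymphoid-like, mast-like and plasmacytoid dendritic-like cells. Of the members, 11 were highest in neutrophil-like cells in both libraries, 10 in macrophage or dendritic-like cells and 2, Bst2 and Zbp1, in plasma-like cells. The other members had a different highest class in each library. Isg15, which encodes a ubiquitin-like protein joined to other proteins after interferon, stood at 6.71 and 6.02 in neutrophil-like cells, at 3.97 and 2.17 in macrophage or dendritic-like cells, and at 0.189 and 0.170 in B-like cells. Ifitm3, a membrane protein that blocks virus entry, was concentrated in the myeloid classes, with 27.8 and 25.9 in macrophage or dendritic-like cells against 0.0621 and 0.116 in B-like cells. It was also among the leading genes of that cluster, although clustering did not use it. Because Ifitm3 alone held 3792 and 5856 UMIs in the macrophage or dendritic-like class, the summed levels per class given next leave it out, while the readout genes defined further on include it.

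Over all kept cells, the members together (without Ifitm3) made up 7.01 UMIs per 10000 in the ad libitum library and 8.15 in the FMD library, a log2 ratio of FMD over ad libitum of 0.22 [0.19, 0.25]. The median log2 ratio of the 34 members was 0.42, beside 0.01 over the 12970 genes with at least 20 UMIs, and 29 of the 34 were above 0. A difference of at least 1.5-fold toward FMD was seen for 7 members, against 4.74% of all genes, and none was 1.5-fold lower, against 4.88%. The 3 highest were Mx1, an interferon-induced GTPase of which C57BL/6 mice carry a defective copy (94 UMIs ad libitum and 237 FMD, 1.33 [0.98, 1.69]), Ifit3, which binds viral RNA together with Ifit1 (126 and 294, 1.22 [0.92, 1.53]), and Oas3 (100 and 210, 1.07 [0.72, 1.43]). Oas1a, with Oas3 a member of the synthetases that switch on RNA decay, had 155 and 257 UMIs (0.73), and the antiviral enzyme Rsad2 had 276 and 448 (0.70). The lowest ratios were those of Ifi44 (24 and 19 UMIs, −0.34 [−1.29, 0.59]), the nucleic acid sensor Zbp1 (1107 and 994, −0.16) and Oasl2 (307 and 292, −0.07). These figures mix classes that went different ways, which the next paragraphs take in turn.

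B-like cells of the FMD library held more RNA of nearly every member. Of the 32 members with at least 20 UMIs, 30 were above 0, the median was 0.53 beside 0.01 over 10451 genes, and ratios ran from −0.53 to 1.56. At least 1.5-fold higher were 14 members, against 2.85% of all genes, and none was lower by that fold, against 3.16%. The counting interval lay above 0 for 18 members, against 9.92% of all genes, and below 0 for none, against 8%. Summed without Ifitm3, the members held 4.72 and 6.05 UMIs per 10000 (0.36 [0.31, 0.41]). Ifit3b and Ifi44 were too low to be given a ratio.

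Among the sensors in B-like cells, Dhx58, a regulator of the RNA sensors, had 87 and 121 UMIs (0.56 [0.16, 0.98]). Ddx58, the RNA sensor RIG-I, had 284 and 311 UMIs (0.22 [−0.02, 0.46]). Ifih1, the sensor MDA5, had the lowest ratio on only 23 and 15 UMIs (−0.53 [−1.57, 0.47]). So 1 of these 3 had an interval above 0. The factors that carry the signal also differed among themselves. Irf7, which drives further interferon production, stood at 0.242 and 0.352 per 10000 (331 and 453 UMIs, 0.54 [0.33, 0.75]). Irf9 was almost level, with 524 and 501 UMIs (0.02 [−0.16, 0.20]), as was its partner Stat2, with 212 in each library (0.09 [−0.19, 0.37]).

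Effectors gave the highest ratios in B-like cells. Ifit3 had 35 UMIs in 22 ad libitum cells and 97 UMIs in 58 FMD cells (1.56 [0.99, 2.16]). Oas3 had 20 and 52 UMIs (1.47 [0.70, 2.29]), and Oas2 33 and 58 (0.90 [0.26, 1.57]). Mx1 had 30 and 73 (1.37 [0.74, 2.04]). These low genes were present in 0.569% to 2.27% of the cells. Rtp4, a receptor transport protein, had 82 and 162 UMIs (1.07 [0.68, 1.47]), and the growth regulator Slfn5 of the Schlafen family had 120 and 197 (0.80 [0.47, 1.14]). Bst2, which tethers budding virus to the cell surface, was common enough to be counted well, with 536 and 763 UMIs in 15.4% and 19.0% of cells (0.60 [0.44, 0.76]). Ifitm3 had 85 and 149 UMIs (0.90 [0.51, 1.30]).

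Isg15 did not share this direction in B-like cells. Its UMIs numbered 258 and 219 (−0.15 [−0.41, 0.12]), but 75 of the 258 came from 1 cell. Without the top cell of each library its log2 ratio was 0.30, and 5.51% of ad libitum and 6.34% of FMD B-like cells had a UMI of it.

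Markers of other cell types in B-like cells were given beside these ratios because free RNA and doublets carry them. Summed Lyz2, C1qa, C1qb, C1qc and Csf1r stood at 0.0212 and 0.0179 per 10000, S100a8 and S100a9 at 0.123 and 0.0560, and the plasma cell gene Jchain at 0.707 and 0.0964. These sums were lower in the FMD library, in which the members were higher, while summed T cell markers stood at 0.0577 and 0.0769. Their part in the ratios was not tested. When both libraries were given the same weights of the 6 B-like clusters, the log2 ratio of the sum was 0.37, and 5 of the 6 clusters were higher in the FMD library.

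Alpha beta T-like cells of the FMD library also held more RNA of most members, with a median of 0.37 beside 0.01 over 10584 genes. Of 33 members, 12 were at least 1.5-fold higher, against 4.04% of all genes, and none was lower by that fold, against 4.02%. Ratios ran from −0.28 to 1.89. The sum without Ifitm3 was 7.25 and 9.45 UMIs per 10000 (0.38 [0.33, 0.43]). Beside this, summed B cell markers in these cells stood at 0.253 and 0.447 per 10000, plasma cell markers at 0.466 and 0.848 and macrophage markers at 0.0405 and 0.0424. The plasma cell markers were higher in the FMD library in CD8 cells alone, at 0.448 and 3.64. They were lower in helper or naive cells, at 0.433 and 0.104, and in regulatory cells, at 0.585 and 0.123. The part of all these markers was not tested.

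Ifit genes were among the highest of the T-like ratios. Ifit3 had 34 UMIs in 25 ad libitum cells and 127 in 51 FMD cells (1.79 [1.24, 2.38]), and its near copy Ifit3b had 4 and 16 (1.89 [0.26, 3.93]). Ifit1 had 71 and 174 (1.18 [0.78, 1.60]). Ifit2, of the same family, was level, with 57 and 63 (0.04 [−0.51, 0.58]). Oas2 had 6 and 19 UMIs (1.55 [0.17, 3.17]) and Oasl1, which holds back Irf7 translation, had 15 and 42 (1.38 [0.50, 2.33]). Slfn5 had 99 and 248 (1.22 [0.87, 1.57]). Mx1 was present in 25 and 40 cells, with 35 and 74 UMIs (0.97 [0.37, 1.59]).

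Irf7 stood at 0.239 and 0.458 per 10000 in T-like cells (183 and 378 UMIs, 0.94 [0.68, 1.20]), a larger ratio than in B-like cells, although that difference was not tested. Isg15 had 783 and 1175 UMIs (0.48 [0.34, 0.61]) and Bst2 555 and 774 (0.37 [0.21, 0.53]). The lowest T-like ratios were those of Ifitm3 (246 and 218 UMIs, −0.28 [−0.55, −0.02]), of Eif2ak2, the kinase PKR that halts translation (76 and 72, −0.19 [−0.67, 0.30]), and of Parp14 (481 and 483, −0.10 [−0.29, 0.08]). Ifi44 had 1 and 10 UMIs and was given no ratio. Over thinned cells outside the strongly responding state defined further on, the median of the list was −0.030, 1 member in place of 12 was at least 1.5-fold higher, and the ratio of Oas2 turned to −1.04.

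The T-like classes were alike in the sign of their medians. Among 31 members in helper or naive T-like cells the median was 0.38, with 12 at least 1.5-fold higher, against 4.13% of genes. The clusters of that class differed in the log2 ratio of the sum without Ifitm3. It was 0.005 [−0.10, 0.11] in the one led by Tnfsf11, 0.47 [0.35, 0.58] in the one led by Izumo1r and 0.89 [0.76, 1.03] in the one led by Igfbp4. CD8 T-like cells had 0.42 over 28 members, with 10 higher against 5.59%, and Ifit1 was at 7 and 43 UMIs there (2.72 [1.56, 4.12]). Regulatory T-like cells, the suppressors among helper cells, had 0.25 over 24 members, with 7 higher against 7.95% and 1, Eif2ak2, lower against 5.86%. A further T-like class rich in natural killer receptors had the highest median, 0.61 over 22 members, with 12 higher against 10.8%, and Isg15 stood at 68 and 140 UMIs in it (1.23 [0.80, 1.67]). Trim25, a ubiquitin ligase of the RIG-I route, was the 1 member lower by that fold there (32 and 18 UMIs, −0.65 [−1.57, 0.23]), against 6.21% of genes.

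**Figure D1:**
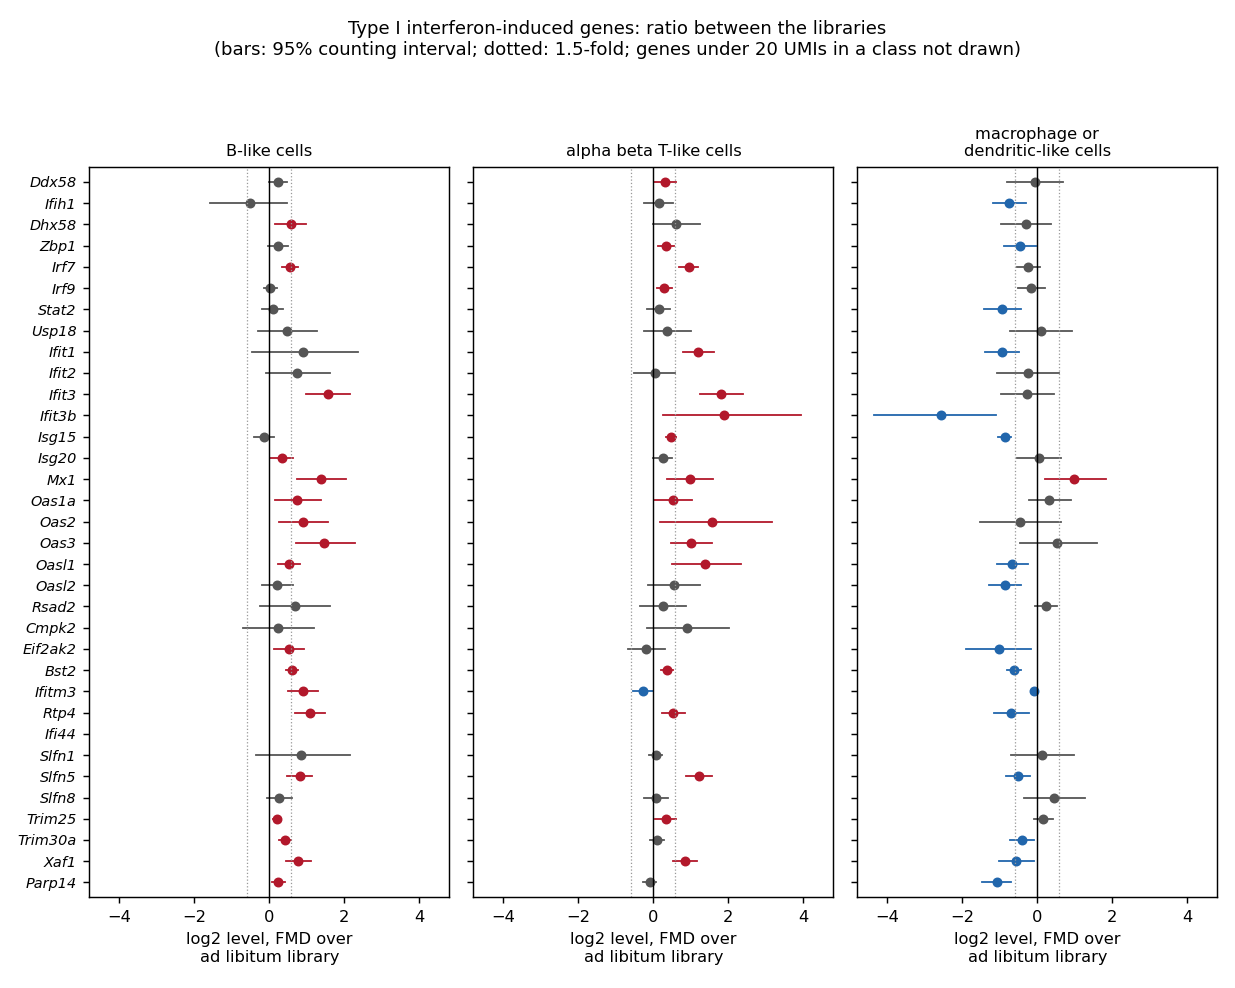
Log2 ratio of the level in the FMD over the ad libitum library for each gene (rows) in B-like, alpha beta T-like and macrophage or dendritic-like cells; points are ratios, bars 95% counting intervals, red above 0, blue below 0 and gray overlapping 0. Points lie mostly to the right in the first 2 panels (medians 0.53 and 0.37) and mostly to the left in the third (median −0.36).

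Macrophage or dendritic-like cells went the other way. The median of 32 members was −0.36 beside −0.02 over 8474 genes, 11 were at least 1.5-fold lower in the FMD library, against 11.5% of all genes, and 1 was higher, against 8.91%. The sum without Ifitm3 was 23.0 and 16.9 UMIs per 10000 (−0.45 [−0.52, −0.38]). Stat2 had 77 and 67 UMIs (−0.93 [−1.42, −0.44]) in a class that held more cells in the FMD library. Parp14, an enzyme that attaches ADP-ribose, had 136 and 106 (−1.09 [−1.47, −0.71]), and Eif2ak2 27 and 22 (−1.03 [−1.91, −0.16]).

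Several macrophage or dendritic-like values rested on a few cells. Isg15 had 542 and 491 UMIs (−0.87 [−1.05, −0.69]), of which 91 and 81 came from 1 cell in each library, and without those cells its ratio was the same to the second decimal. Over thinned cells outside the strongly responding state defined further on, the ratio of Isg15 turned to 0.27 and that of Mx1 to −1.84. Bst2 had 464 and 499 (−0.62 [−0.81, −0.44]), and −0.60 without the top cells. Ifit3b had 18 and 5 UMIs (−2.58), all 18 from 1 ad libitum cell. Ifit1 had 94 and 81 (−0.94 [−1.39, −0.50]), 56 of them from 1 ad libitum cell, and its ratio without the top cells was −0.33. Rsad2 had 156 UMIs, 115 from 1 cell, and 303, 148 from 1 cell (0.23 [−0.05, 0.52]). Without the top cell of each gene, 7 members in place of 11 were at least 1.5-fold lower.

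Other members in this class were closer to even or higher. Mx1 had 18 and 59 UMIs (0.98 [0.20, 1.83]), 22 of the 59 from 1 cell, Oas3 13 and 31 (0.52 [−0.45, 1.58]), Slfn8 20 and 45 (0.44 [−0.35, 1.28]) and Oas1a 41 and 85 (0.32 [−0.23, 0.90]). Ifit3 had 32 and 44 (−0.27 [−0.96, 0.43]), Irf7 153 and 215 (−0.24 [−0.55, 0.07]), Slfn5 151 and 174 (−0.53 [−0.85, −0.20]) and Ifitm3 3792 and 5856 (−0.10 [−0.16, −0.04]). Of these 4, Slfn5 and Ifitm3 had intervals below 0.

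The makeup of the macrophage or dendritic-like class also differed between the libraries. The complement gene C1qb, a marker of tissue macrophages, had 15 and 326 UMIs (3.71 [2.97, 4.57]), C1qc had 4 and 145 and Apoe 196 and 1366, whereas the cross-presenting dendritic cell marker Xcr1 had 22 and 7 and Clec9a 24 and 15. In cells of the class with a UMI of C1qa, C1qb, C1qc, Adgre1 or Csf1r (62 and 111 cells) the summed ratio was −0.52 [−0.61, −0.44], and in cells without one (62 and 59) it was −0.44 [−0.57, −0.31]. The lower sum was seen in both subsets, which were defined after the values had been seen. Member by member the subsets differed more, with a median ratio of −0.27 over 31 members in cells with such a UMI. In cells without one it was −0.79 over 24 members. The part of the makeup in the ratios was not tested beyond this split. Neutrophil markers in the class stood at 0.242 and 0.0531 per 10000 and plasma cell markers at 0.257 and 0.0531, both lower in the FMD library. B cell markers stood at 0.924 and 1.24 and T cell markers at 0.132 and 0.394, both higher there. The part of such RNA was not tested either.

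Neutrophil-like cells had few cells and a median of −0.16 over 17 members, with 3 members at least 1.5-fold lower against 16.4% of genes and 2 higher against 14.5%. The 3 were Parp14 (42 and 8 UMIs, −1.86 [−3.16, −0.75]), Zbp1 (32 and 7, −1.66 [−3.09, −0.46]) and Slfn5 (25 and 6, −1.53 [−3.10, −0.21]). Isg15 had 190 and 118 UMIs (−0.16 [−0.50, 0.18]), and Irf7 35 and 20 (−0.28 [−1.15, 0.56]). No UMI of Mx1, Ifit2 or Ifi44 was found in this class in either library. Rsad2 was level, with 38 and 27 UMIs (0.04 [−0.73, 0.79]).

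In the remaining B lineage classes the ratios were smaller or mixed. Memory or B-1 B-like cells had a median of 0.18 over 18 members, with 4 at least 1.5-fold higher against 4.67% of genes, Oasl1 the highest (17 and 29 UMIs, 1.10 [0.19, 2.06]). Germinal center B-like cells, which divide in follicles, had −0.31 over 15 members, with 4 lower against 9.69% and 1 higher against 7.43%. Plasma-like cells, which secrete antibody, had 0.14 over 13 members. Bst2, at 1051 and 403 UMIs in 92 and 32 plasma-like cells, was level there (−0.06 [−0.23, 0.11]), and Zbp1 had 335 and 66 UMIs (−1.02 [−1.42, −0.63]). Plasmacytoid dendritic-like cells, known as the main producers of type I interferon, numbered only 4 and 6, with 176 and 237 UMIs of Bst2 (−0.14). Irf7 had 25 and 8 UMIs in them (−2.22 [−3.58, −1.02]), but 17 of the 25 came from 1 cell, and without the top cells the ratio was −1.57.

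Member by member, 31 genes could be given a ratio in B-like, T-like and macrophage or dendritic-like cells alike. Of these, 17 were above 0 in both lymphocyte classes and below 0 in the myeloid class, against 14.2% of the 7707 genes with a ratio in all 3. Another 9 were above 0 in all 3 (Isg20, Mx1, Oas1a, Oas3, Rsad2, Usp18, Slfn1, Slfn8 and Trim25), against 15.7%. Intervals lay above 0 in B-like and below 0 in macrophage or dendritic-like cells for 9 members, namely Oasl1, Bst2, Rtp4, Ifitm3, Slfn5, Eif2ak2, Trim30a, Xaf1 and Parp14, against 1.27% of those genes. At a limit of 2-fold, 3 members were higher over all cells, against 1.81% of genes, 4 in B-like cells, against 0.689%, and 7 in T-like cells, against 1.22%, and 3 were lower in macrophage or dendritic-like cells, against 4.21%. The level was higher in macrophage or dendritic-like than in B-like cells in both libraries for 28 of the 31, against 42.5% of those genes, and than in T-like cells for 25, against 35.1%. The difference between the classes in their ratios was not tested, since each library is 1 sample.

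Cells were then sorted into a responding state and the rest, so that a few cells with much RNA could be set apart from a small shift in many. Each cell was thinned at random to 2000 UMIs outside immunoglobulin and mitochondrial genes, 510 shallower cells were left out (281 and 229), and a cell was called responding with at least 3 UMIs of 11 state genes (Isg15, Ifit1, Ifit2, Ifit3, Ifit3b, Rsad2, Usp18, Cmpk2, Mx1, Oasl1 and Ifi44). The other 23 members, called readout genes here, were kept out of that choice. The cut is a point in a range and not a cell type: 14 and 27 B-like cells had exactly 2 state UMIs and 3 and 12 exactly 3, and in T-like cells these numbers were 34 and 41, and 6 and 16.

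Responding cells were rare in the B-like and the alpha beta T-like class and held a larger share of both in the FMD library. T-like cells held 18 among 1024 (1.76% [1.05, 2.76]) under ad libitum feeding and 47 among 1078 (4.36% [3.22, 5.76]) under FMD, a 2.48-fold higher share [1.41, 4.54]. In B-like cells they were 12 of 2742 (0.438% [0.226, 0.763]) and 23 of 2514 (0.915% [0.581, 1.37]), or 2.09-fold [0.998, 4.61], an interval that just reached 1. Over all cells 63 of 4584 (1.37%) and 100 of 4391 (2.28%) were responding, 1.66-fold [1.20, 2.31]. Without thinning the shares were 9.39% and 12.9% in T-like cells (1.37-fold) and 1.17% and 2.70% in B-like cells. With at least 1 state UMI as the cut the folds were 1.34 and 1.23. Other B lineage classes had too few such cells to compare: memory or B-1 B-like cells held 3 of 263 and 1 of 199 (0.441-fold [0.00839, 5.49], and 4.03-fold without thinning), and plasma-like cells 1 of 85 and 0 of 32, which allows up to 9.38%.

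Within the T-like cells, helper or naive cells held 12 of 594 and 29 of 586 responding cells (2.45-fold [1.21, 5.27]), CD8 cells 3 of 230 and 10 of 214 (3.58-fold [0.922, 20.3]) and regulatory cells 3 of 200 and 8 of 278 (1.92-fold [0.460, 11.2]). A helper or naive cluster led by Igfbp4 and Lef1, genes of resting naive cells, held 0 of 148 ad libitum cells, which allows a share of up to 2.03%, and 11 of 166 FMD cells. The cluster led by Izumo1r, with Tox2 and Tcf7, held 3 of 182 and 13 of 202. The cluster led by Tnfsf11, with Il17f and Il22, held 9 of 264 and 5 of 218. These clusters were singled out after their values had been seen.

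Macrophage or dendritic-like and neutrophil-like cells held larger shares of responding cells than the B-like and T-like classes in both libraries. Macrophage or dendritic-like cells had 10 of 89 (11.2% [5.52, 19.7]) and 12 of 153 (7.84% [4.12, 13.3]) cells in that state, 0.698-fold [0.276, 1.80]. Thinning left out 35 of 124 and 17 of 170 cells of this class as too shallow. Its values over thinned cells, here and below, therefore compare unequal parts of the class. Neutrophil-like cells had 13 of 61 (21.3%) and 8 of 47 (17.0%). Without thinning, the shares were 25.0% and 28.2% in macrophage or dendritic-like cells (1.13-fold, the other direction) and 39.4% and 31.5% in neutrophil-like cells. At these numbers a difference in either direction was not detectable. No responding cell was found among germinal center B-like cells (0 of 62, which allows up to 4.84%, and 0 of 84, up to 3.57%) or gamma delta T-like cells (0 of 68, up to 4.41%, and 0 of 47, up to 6.38%). Natural killer receptor-rich T-like cells had 5 of 144 and 5 of 126.

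**Figure D2:**
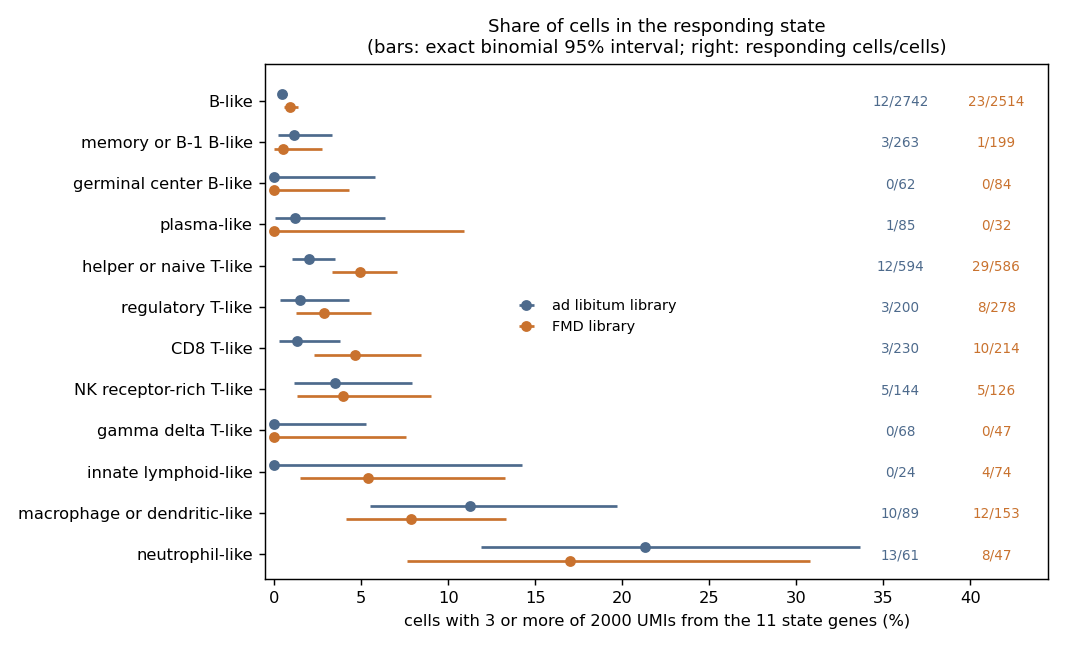
Percent of cells in the responding state (at least 3 of 2000 UMIs from the 11 state genes) in each class, blue for the ad libitum and orange for the FMD library; bars are exact binomial 95% intervals, and the numbers at the right give responding cells over cells. The orange point is right of the blue one in the B-like class and in the helper or naive, regulatory and CD8 T-like classes, and left of it in the macrophage or dendritic-like and neutrophil-like classes.

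A B cell marker was found in 100% of the responding B-like and a T cell marker in 100% of the responding T-like cells of both libraries. Other cells had one in 99.8% and 99.7% of B-like and in 99.7% and 99.4% of T-like cells. Classes were named from such markers and cells with markers of 2 lineages were removed, so these shares were largely set in advance. In both lymphocyte classes and both libraries the median responding cell had 0 UMIs of neutrophil, plasma cell and macrophage markers, and the B-like and T-like cells had 0 of each other's. A neutrophil marker UMI was in 8.33% of the 12 responding and 5.60% of other ad libitum B-like cells. In the FMD library it was in 8.70% of the 23 responding and 2.53% of other B-like cells. For plasma cell markers these shares were 25.0% and 19.6%, and 4.35% and 4.70%. In T-like cells neither was more frequent in responding cells. The part of such RNA was not tested. Median depth before thinning was 4050.5 UMIs in responding and 5000 in other B-like cells of the ad libitum library, and 4702 and 5143 in the FMD library. In T-like cells it was 7366.5 and 7246.5, and 7622 and 7350.

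Members that had not chosen the cells were higher in the responding cells too. Read with each state gene left out of its own choice, all 31 members with enough UMIs were higher in responding than in other B-like cells, and all 31 were in T-like cells. The median log2 ratio of responding over other cells was 3.79 for the 22 readout genes in B-like cells and 2.58 for the 22 in T-like cells. Oas3 led them in B-like cells (0.257 and 0.00517 UMIs per cell, 5.64 [4.36, 6.77]), and Trim25 was lowest (0.486 and 0.246, 0.98 [0.20, 1.67]). In T-like cells Slfn5, whose promoter is shown above, had 0.477 and 0.0329 UMIs per cell (3.86 [3.19, 4.49]), and Ifit3 22 UMIs in 63 responding cells and 17 in all others (5.39 [4.41, 6.39]).

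The readout genes allowed the difference between the libraries to be divided exactly into a part from the share of responding cells, a part from the level within them and a part from the level in the other cells. B-like cells outside the responding state held 0.847 readout UMIs per ad libitum cell and 1.09 per FMD cell, 1.28-fold [1.21, 1.36]. That part made up 87.6% of the difference of 0.272 UMIs per cell, and the share of responding cells 14.2%. T-like cells outside the state were level, at 1.21 and 1.20 UMIs per cell (0.999-fold [0.922, 1.08]). There the share accounted for 55.3% of the difference and the level in responding cells, 4.39 and 7.79 UMIs per cell, for 45.2%. With Ifitm3 taken out of the readout genes, a choice added after these values were known, the folds outside the state were 1.28 [1.21, 1.35] in B-like and 1.02 [0.944, 1.11] in T-like cells, and the T-like parts became 48.6% from the share, 40.7% from the level in responding cells and 10.7% from the others.

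Neither division was independent of which genes chose the cells. When at least 5 readout UMIs chose the cells and the state genes were read, B-like cells outside the chosen set were at 0.925-fold [0.741, 1.15] and T-like cells at 1.14-fold [0.958, 1.36]. When the UMIs of all members in each cell were split at random into equal parts, one to choose and one to read, the folds were 1.23 [1.14, 1.34] in B-like and 1.01 [0.905, 1.12] in T-like cells. For B-like cells the higher level outside the state thus held in 2 of the 3 choices, and the third, read on 185 and 152 UMIs, was on the other side of 1 with an interval that spans it. With cells thinned to 1000 UMIs the T-like fold was 1.19, and with at least 1 state UMI as the cut it was 0.899.

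Macrophage or dendritic-like cells outside the state held 7.71 and 6.44 readout UMIs per cell, 0.835-fold [0.753, 0.927]. Their value was 0.525 [0.271, 1.02] with the sets swapped and 1.08 [0.834, 1.41] with split UMIs, so neither direction held over the choices. The responding cells of this class went the other way, with 9.60 and 15.9 readout UMIs per cell. Ifitm3 supplied most of these UMIs. Without it the cells outside the state held 2.71 and 1.92 readout UMIs, 0.710-fold [0.591, 0.853], and the responding cells 4.10 and 7.25.

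**Figure D3:**
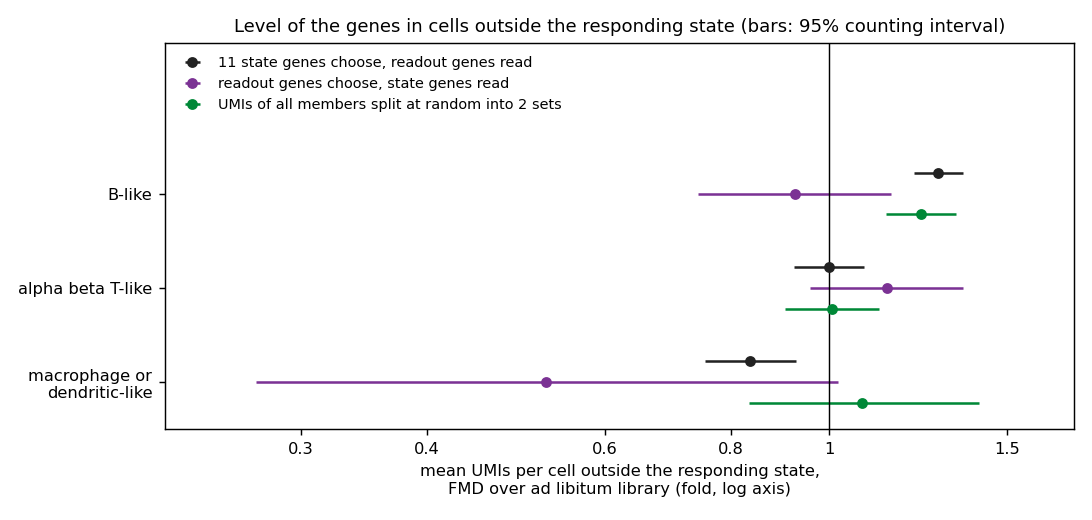
Fold (FMD over ad libitum, log axis) of the mean UMIs per cell in cells outside the responding state, for B-like, alpha beta T-like and macrophage or dendritic-like cells under 3 ways of choosing the cells; bars are 95% counting intervals. Black and green B-like points lie right of 1 (1.28 and 1.23) and the purple one left of it (0.925), while the black and green T-like points lie at 1.

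Counts per cell showed where in the distribution the libraries parted. In B-like cells 49.7% of ad libitum and 45.4% of FMD cells had no readout UMI, a difference of −4.36 percentage points [−7.06, −1.66]. Cells with 1 UMI were 29.8% and 30.6%, and cells with 2 were 12.4% and 11.9%. The upper end differed more: 47 cells (1.71%) and 120 cells (4.77%) had at least 5 readout UMIs, 2.78-fold [1.97, 3.99], and 10 and 27 cells had at least 10. In T-like cells the share without a readout UMI was level (38.0% and 37.5%), and 39 (3.81%) and 66 cells (6.12%) had at least 5, 1.61-fold [1.07, 2.45]. Over cells with fewer than 5 readout UMIs the mean was 0.767 and 0.825 in B-like and 1.04 and 1.02 in T-like cells, values that the limit of 5 itself restricts.

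**Figure D4:**
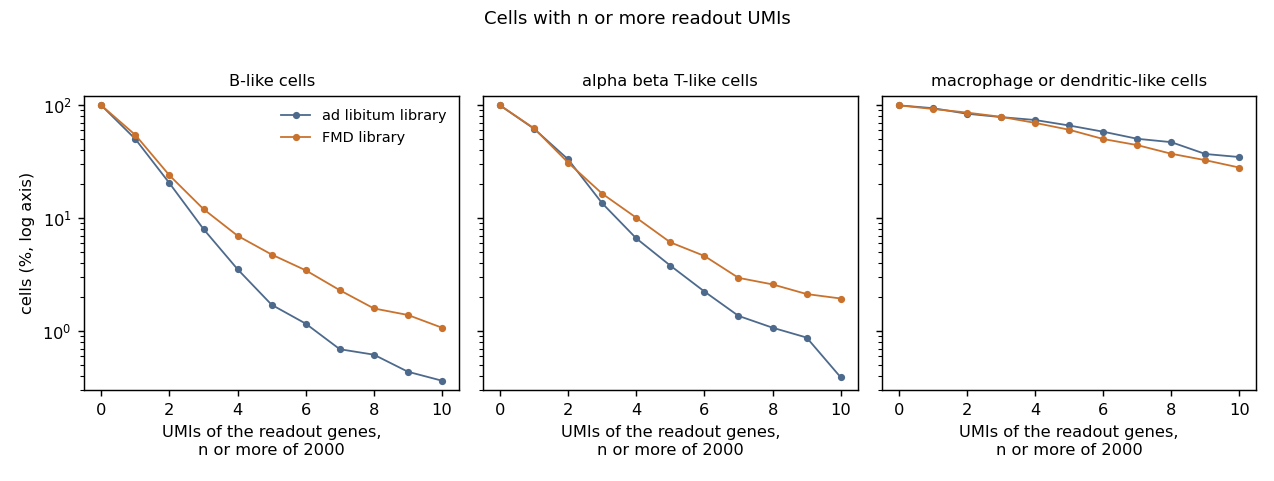
Percent of cells (log axis) with at least the number of readout UMIs given on the horizontal axis, of 2000, for B-like, alpha beta T-like and macrophage or dendritic-like cells, blue for the ad libitum and orange for the FMD library. The B-like curves part progressively, to 1.71% and 4.77% at 5 UMIs, the T-like curves start together and part from 3 UMIs on, and the orange macrophage or dendritic-like curve runs below the blue one from 4 UMIs on.

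Each member was also read in cells chosen by at least 5 UMIs of the other readout genes, a choice added after the values above were known. Outside the chosen cells, 22 members in B-like cells had a median log2 ratio of 0.24, with 16 above 0. Slfn5 had 28 and 43 UMIs there (0.79 [0.07, 1.53]), Eif2ak2 29 and 45 (0.80 [0.10, 1.53]), Bst2 188 and 221 (0.39 [0.10, 0.68]) and Trim25 597 and 657 (0.31 [0.14, 0.47]), the 4 members with intervals above 0. Isg15 had 92 and 52 (−0.65 [−1.17, −0.15]). In T-like cells 24 members had a median of 0.00, with 12 above 0, and Ifitm3 was the 1 member whose interval did not reach 0 (59 and 35 UMIs, −0.79 [−1.44, −0.16]).

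The B-like cells with at least 5 readout UMIs were spread over the clusters. They numbered 14 and 38 in the cluster led by Pax5 and Bank1, 7 and 31 in the one led by Myc and Egr3, 10 and 23 and 8 and 25 in both clusters led by B3gnt7 or Fcrla, 4 and 2 in the one led by heat shock genes, and 4 and 1 in the smallest, led by Siglecg. Their number was thus higher in the FMD library in 4 of 6 clusters. Cluster sizes differed between the libraries, so shares of each cluster's cells are given in the same order. They were 1.88% and 6.71%, 0.972% and 5.53%, 1.68% and 4.21%, 1.84% and 3.64%, 2.19% and 1.98%, and 6.35% and 1.89%. When the interferon-induced genes were allowed to shape the clusters, a B-like cluster led by Ifit3, Oasl1, Mx1, Slfn5 and Ifi213 formed, whose size is not compared because the members defined it.

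Other interferon-induced genes were often higher in responding cells too. In B-like cells 34 of 43 looked-up genes of that kind were at least 2-fold higher in responding than in other cells, against 10.8% of all genes, and in T-like cells 22 of 38, against 3.88%. They were a small part of the 847 and 255 genes outside the list that were 2-fold higher, but 8 of the highest 12 in each class. The highest in B-like cells were Lgals3bp (8 UMIs in 35 responding and 42 in 5221 other cells, 4.83 [3.53, 5.94]), the DNA-binding family member Ifi206 (34 and 306, 4.05 [3.49, 4.56]) and Phf11b (17 and 178, 3.83 [3.02, 4.55]). They were followed by Pydc3, Ube2l6 (the enzyme that conjugates Isg15), Gbp7, Ifi214, Rnf213, Ifi213, Herc6, Trim30d and Plekhn1. At the other end, 1897 of 7862 genes had 0 UMIs in the 35 responding cells, and of these Bhlhe40, Hbb-bs, Cript, Larp4b and Dpm3 had the most UMIs in other cells.

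In T-like cells the highest was Rnf213 (38 UMIs in 65 responding and 125 in 2037 other cells, 3.25 [2.69, 3.79]), followed by Herc6 (2.99) and the chemokine gene Cxcl10 (2.93). Of the 30 Cxcl10 UMIs in responding T-like cells, 21 came from the 18 ad libitum cells. Pydc3, Trim30d, Ifi213, Ifi206, Daxx, Pml, Phf11b, Setd4 and Setdb2 came next. Of 6574 genes 298 had 0 UMIs in responding cells, and of these Penk, Ccl4, Ccl20, Il22 and Ccdc127 had the most in other cells. Of genes induced mainly by interferon gamma, the T and natural killer cell cytokine, 7 of 12 were at least 2-fold higher in responding B-like cells, against 10.8% of genes, and 10 of 18 in responding T-like cells, against 3.88%. Of the receptor and its signalling genes, 1 of 12 and 0 of 13 were, beside the same backgrounds.

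The upstream part of the pathway was close to level between the libraries. The 18 type I interferon genes looked up had 4 and 3 UMIs in all cells together, from Ifnz and Ifnk, and none in B-like, macrophage or dendritic-like or neutrophil-like cells, so their expression was not detectable at this depth. The 13 receptor and signalling genes had a median of −0.10 over all cells, −0.09 in B-like and −0.00 in T-like cells. Ifnar1 was the highest of them in B-like cells (1272 and 1508 UMIs, 0.33 [0.23, 0.44]), before Tyk2 (0.24) and the phosphatase gene Ptpn2 (0.10). The transcription factor gene Irf1, which responds to interferon gamma as well, was the lowest (637 and 385, −0.64 [−0.82, −0.45]), after the feedback inhibitor Socs1 (−0.48), and was the 1 gene of the 13 at least 1.5-fold lower there, against 3.16% of all genes. Genes of nucleic acid sensing had medians of −0.03 over all cells and 0.01 in B-like cells.

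Interferon-induced genes outside the list, 58 of 62 looked up, differed less than the members. Their median was 0.16 over 52 genes in B-like cells, with 4 at least 1.5-fold higher against 2.85% of all genes and 2 lower against 3.16%. In T-like cells it was 0.14 over 51, with 2 higher against 4.04% and 0 lower against 4.02%. Phf11d (9 and 18 UMIs, 1.09), Lgals3bp (39 and 61, 0.73) and Trim14 (32 and 50, 0.73) were highest in B-like cells, and Slfn9 (29 and 15, −0.86) and Gvin1 (67 and 38, −0.73) lowest. In T-like cells Ifi204 (10 and 20, 0.89), Gvin1 (35 and 64, 0.76) and Trim30d (71 and 112, 0.55) were highest. Gvin1 thus had ratios of opposite sign in the lymphocyte classes.

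Genes induced mainly by interferon gamma were near level in the lymphocyte classes, and in macrophage or dendritic-like cells they were further below 0 than the members. Their median was 0.09 in B-like cells, 0.02 in T-like cells and −1.54 in macrophage or dendritic-like cells, where 13 of 18 were at least 1.5-fold lower, against 11.5% of all genes. In the macrophage or dendritic-like cells the chemokine Cxcl10 had 1043 and 276 UMIs (−2.65 [−2.84, −2.45]) and the guanylate-binding protein gene Gbp5 89 and 24 (−2.62). Irf1, counted among the receptor and signalling genes, had 461 and 189 there (−2.02 [−2.27, −1.77]). Nos2 had 36 and 0 UMIs. Other interferon-induced genes had a median of −0.26 in that class, with 14 of 49 lower, against 11.5%, 3 higher, against 8.91%, and Ly6a lowest (372 and 80, −2.95 [−3.31, −2.59]). In neutrophil-like cells 7 of 9 interferon gamma genes were lower, against 16.4% of all genes, Cxcl10 with 259 and 11 UMIs (−4.03 [−5.05, −3.16]). The members in the myeloid classes, with medians of −0.36 and −0.16, were nearer to level than the interferon gamma genes.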

How the data were processed

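CD45+ cells of 2 libraries, 1 per diet, were measured with 10x Genomics 3' V3 chemistry. The authors deposited raw UMI counts per gene and cell as sparse matrices, with gene and barcode lists (unit "other", per the file headers the identifiers only). The submitters' processing notes name CASAVA 1.8, Cell Ranger 3.1.0, Seurat 2.3.4 and the build GRCm38, with no role or order. The members and gene lists were chosen with earlier results of these data known.

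From the counts, cells with at least 200 genes and at most 20% mitochondrial UMIs were kept. Scrublet marked 1 and 4 cells and was not relied on alone, so cells with markers of 2 lineages were removed as well (88 and 122 cells, the Scrublet calls included). Of 6089 and 5877 barcodes, 4865 and 4620 remained. Clusters were made with scanpy 1.11.5 (2000 variable genes without interferon-induced, immunoglobulin or mitochondrial genes, 30 components, 15 neighbors, Leiden resolution 1, leidenalg 0.10.2) and named "-like" from listed markers, by a naming rule set after the clusters had been seen. UMIs were summed per class and library and divided by the UMIs outside immunoglobulin and mitochondrial genes. Genes with at least 20 UMIs over both libraries were given a ratio, and a 1.5-fold difference was counted. With 1 library per diet no test between diets was made. Intervals (scipy 1.17.1) are exact Poisson, Clopper-Pearson or conditional binomial at 95%, except the difference of shares without a readout UMI, a normal approximation, and a count of 0 allows up to 3 counts. The calculations were tested on simulated data.

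Named members are the 5 highest and 3 lowest ratios of a class, and always Isg15, Ifit3, Mx1, Irf7, Bst2, Ifitm3 and Slfn5. Of pathway lists the 3 highest and 2 lowest were eligible, and of genes standing apart in responding cells the 12 highest and 5 lowest. Other genes named were chosen after their values were seen. Promoter windows come from RefSeq, GRCm38.p6. Alternatives covered clustering, mitochondrial and doublet filters, scaling, depth, low counts, single cells, the cut and the gene sets. The split of UMIs, the shares without a readout UMI, the makeup of clusters and of the macrophage or dendritic-like class, the reading of each member in cells chosen by others, the share without thinning or at 1 UMI, and the readout without Ifitm3 were added after seeing the data. The labels call the tissue colorectal tumor, and their extraction text also speaks of normal colon.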

Additional observations from a re-analysis of the deposited data

Results flagged for a closer look

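The members went in opposite directions in B-like and alpha beta T-like cells and in macrophage or dendritic-like cells of the same libraries. Their median log2 ratio of the FMD over the ad libitum library was 0.53 in B-like cells, 0.37 in alpha beta T-like cells and −0.36 in macrophage or dendritic-like cells. The difference between the classes was not tested, since each diet is 1 library.

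A cluster of low depth that was given no name, with 90 ad libitum and 96 FMD cells and medians of 1011 and 1396.5 UMIs per cell, belonged to no comparison. Its members without Ifitm3 stood at 4.87 per 10000 UMIs in the ad libitum library and at 11.3 in the FMD library, on 50 and 146 UMIs. Only Parp14 (7 and 26 UMIs, 1.56) and Trim25 (9 and 27, 1.25) had enough UMIs there for a ratio.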

How the results depend on the processing

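No paired analysis was possible because each diet had 1 library, and the number shared in the labels pairs nothing. The spread allowed for a median over the list ran from the median lower to the median upper counting limit of its members, a wide range. Of 88 medians over the list under the alternatives, 87 kept their direction within the spread allowed. The exception was the T-like median, −0.030 over thinned cells without responding cells, where single genes also reversed (Oas2 in T-like cells −1.04, Isg15 in macrophage or dendritic-like cells 0.27, Mx1 there −1.84). The cause was not tested.

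Medians ranged from 0.39 to 0.54 in B-like, from −0.030 to 0.45 in T-like and from −0.47 to −0.13 in macrophage or dendritic-like cells. The lowest were 0.00937 in CD8, 0.0878 in helper or naive and 0.0522 in regulatory T-like cells, whose main values were 0.42, 0.38 and 0.25. These drops toward 0 still counted as kept. The 7 members counted as higher over all cells became 12 per all UMIs, 11 without the top cell of each gene, 11 at 10% mitochondrial UMIs, 4 without responding cells and 3 at 2-fold. The 14 in B-like cells became 4 at 2-fold, and the 12 in T-like cells became 1 without responding cells and 7 at 2-fold. The 11 lower in macrophage or dendritic-like cells became 5 over thinned cells, 7 without top cells, 4 without responding cells and 3 at 2-fold.

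The fold of the responding share ranged from 1.23 to 3.35 in B-like, from 1.34 to 3.20 in T-like and from 0.360 to 1.13 in macrophage or dendritic-like cells, the last above 1 only without thinning. At a cut of 1 UMI it was 1.34 in T-like and 0.782 in CD8 T-like cells, and without thinning 1.37 in T-like cells; these settings were added after seeing the data. It was 0.240 in regulatory T-like cells at 5 UMIs and 5.69 in natural killer receptor-rich T-like cells at 10% mitochondrial UMIs. For the fold outside the responding state, with the sets swapped it was 0.925 in B-like, 1.14 in T-like and 0.525 in macrophage or dendritic-like cells, and with split UMIs 1.08 and without Ifitm3 0.710 in the last. With a cut of 1 UMI it was 1.09 over all cells, 1.18 in B-like and 0.899 in T-like cells. With 1000 UMIs it was 1.21 over all cells, 1.19 in T-like and 0.969 in macrophage or dendritic-like cells, and without doublet removal 1.11 in T-like cells. Natural killer receptor-rich T-like cells at resolution 0.5 and memory or B-1 B-like cells without doublet removal formed no cluster of their own and gave no value. Depth limited the type I interferon genes and the smallest classes most.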
